A study of Mus musculus with 8 samples.

Results

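The 10 genes described here encode zinc transporters: Slc39a1, Slc39a6, Slc39a7, Slc39a10 and Slc39a14 of the Slc39 (ZIP) family, and Slc30a1, Slc30a5, Slc30a6, Slc30a7 and Slc30a9 of the Slc30 (ZnT) family. They were taken by symbol from a table of 57180 genes, which holds 24 genes of the 2 families in all. Expression had been measured by RNA sequencing in mouse regulatory T (Treg) cells, CD4 T cells that restrain immune responses, obtained by FACS. There were 8 libraries, of which 5 carry the title chimera WT and 3 the title chimera KO (WT and KO from here on). They give neither the deleted gene nor the strain, age, sex or treatment of the mice, and do not say how the chimeras were made. They name different mice as the source but tie no library to an animal, so a p-value here weighs only library-to-library spread, part of which may be technical. Library names begin with FY in WT replicates 2 and 3 and with CY in the rest, and what this prefix stands for is not given. Library input was 10 ng of total RNA.

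Zinc is a cofactor of many enzymes and transcription factors, and lymphocytes also use changes in free zinc as a signal. ZIP proteins move zinc into the cytosol, from outside the cell or from organelles. ZnT proteins move it out of the cytosol, across the plasma membrane or into organelles and vesicles. Free zinc is buffered by metallothioneins, and the transcription factor MTF-1 senses it and induces metallothionein genes and Slc30a1. In T cells, zinc entry through ZIP transporters has been linked to receptor signalling.

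Library totals were 10544594 to 17976947 counts in WT and 4314262 to 8477688 in KO. The Treg label was checked with 7 markers (Foxp3, Il2ra, Ctla4, Ikzf2, Tnfrsf18, Cd3e and Cd4). All 7 had at least 10 counts in every library except WT replicate 5, where Foxp3, the factor that defines the lineage, had 9 counts. Foxp3 was also low in WT replicate 4 (22 counts) and KO replicate 2 (18 counts). The 7 markers summed to 4436 to 6794 CPM of library totals in WT replicates 1 to 3, 1710 and 1919 in WT replicates 4 and 5, and 3810, 1759 and 1019 in KO. In these sums Ikzf2 alone gave 2584, 5011 and 3885 in WT replicates 1 to 3. It gave 32.1 and 740 in WT replicates 4 and 5, and 2245, 1019 and 543 in KO. In CPM after TMM scaling the marker sums were 3898, 6281, 5497, 4317 and 2822 in WT replicates 1 to 5. On that scale they were 2825, 1201 and 787 in KO replicates 1 to 3. In edgeR all 7 markers had negative log2 changes, from −3.57 for Tnfrsf18 to −0.09 for Foxp3, with 0 called. With upper-quartile factors 2 turned positive. With library totals, a minimum mean of 5 CPM, or counts thinned to the shallowest library, 1 did. Leaving out WT replicate 2, WT replicate 3, both of these or KO replicate 2 also turned 1 positive, up to 1.90 without both WT libraries. DESeq2 called 2 of the 7, and 9.65% of all genes it tested. The part of these marker levels in the transporter differences was not tested. WT replicates 4 and 5 stood apart from the other libraries. They had the fewest genes with 10 counts, 8250 and 9484 against 12491 to 14318 elsewhere, mitochondrially encoded shares of 6.85% and 5.44% against 1.80 to 3.57%, and TMM factors of 0.4 and 0.689 against 1.08 to 1.49, which raise their normalised levels. Levels below are CPM after TMM scaling (normalised CPM), given per library and as mean ± SD with n = 5 WT and n = 3 KO. Log2 changes are KO minus WT from edgeR's quasi-likelihood test over 14755 genes, with 95% intervals and Benjamini-Hochberg adjusted p.

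No zinc transporter gene passed the test between KO and WT, and each library expressed its own mixture of them. With 10 counts as the mark of detection, 8, 8, 9, 5 and 5 of the 10 genes were detected in WT replicates 1 to 5, and 10, 8 and 8 in KO replicates 1 to 3. Slc30a5 and Slc30a9 were detected in all 8 libraries. In all, 15 of 50 values in WT and 4 of 30 in KO were under 10 counts. A count of 0 allows up to 3 counts, which is 0.249 to 0.421 normalised CPM in the WT libraries and 0.262 to 0.537 in the KO libraries, for counting error only.

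**Figure D1:**
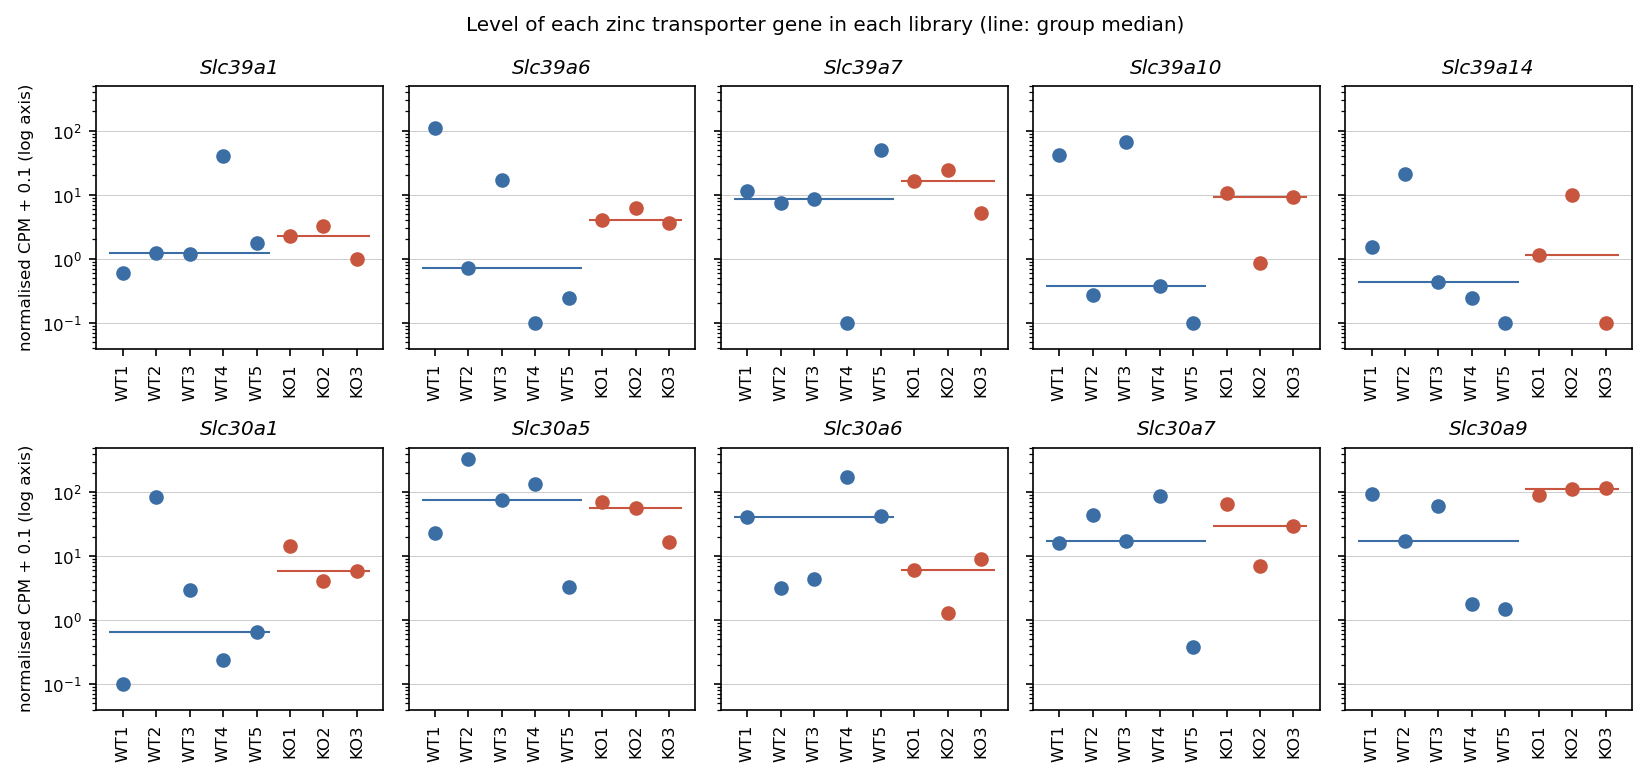
Each panel plots normalised CPM + 0.1 on a log axis (y) for 1 gene in each of the 8 libraries (x), WT in blue and KO in red, with a line at the group median. The KO and WT points overlap in all 10 panels, and a WT library holds the highest point in 9 of them (7 by CPM of library totals).

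Among the ZIP genes, those of the plasma membrane come first. Slc39a6 (ENSMUSG00000024270, GRCm38 chromosome 18, 24579881 to 24603817, minus strand) encodes ZIP6, an importer of the LIV-1 subfamily. It stood at 109, 0.607, 16.9, 0 and 0.139 normalised CPM in WT replicates 1 to 5 and at 3.94, 6.13 and 3.58 in KO replicates 1 to 3. WT replicate 1 alone was far above the rest, and the KO libraries lay between the high and the low WT libraries. The means were 25.3 ± 47.2 in WT and 4.55 ± 1.38 in KO, with a log2 change of −2.47 (SE 2.26, interval −7.53 to 2.58, adjusted p = 0.561 in edgeR). Without WT replicate 1 the log2 change was 0.05. The gene span of Slc39a6 shares 952 bases with that of Elp2 on the other strand. Overlaps here and below are between whole gene spans, introns included, and shared exons were not checked. Reads on any shared exon could not be told apart by strand, since the kit does not mark it. Elp2 was highest in WT replicate 3, with 2357 counts, and had 518 in WT replicate 1.

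Slc39a10 (ENSMUSG00000025986, chromosome 1, 46807544 to 46892852, minus strand) encodes ZIP10, a close relative of ZIP6 with which it can form a heteromer. Its levels were 42.3, 0.173, 66.7, 0.281 and 0 in WT replicates 1 to 5 and 10.4, 0.748 and 9.13 in KO replicates 1 to 3. WT replicates 1 and 3 were high and the other 3 WT libraries were at or near 0, so the KO libraries fell between them. The log2 change was −1.69 (SE 2.22, interval −6.65 to 3.26, adjusted p = 0.684 in edgeR), from means of 21.9 ± 31.0 in WT and 6.76 ± 5.25 in KO. WT replicates 1 and 3 were the highest libraries for both partner genes, and WT replicates 2, 4 and 5 the lowest. Same-strand Gm37393, which overlaps Slc39a10, had 438 counts in WT replicate 1, 26 in WT replicate 3 and 108, 160 and 254 in KO. Per kilobase of transcript, Slc39a6 stood 3.64-fold above Slc39a10 in WT replicate 1 and at 0.359 of it in WT replicate 3. In KO replicates 1 to 3 the ratio was 0.536, 11.6 and 0.555. That of KO replicate 2 rests on 5 counts of Slc39a10, under the mark of detection.

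Slc39a1 (ENSMUSG00000052310, chromosome 3, 90248172 to 90253612, plus strand) encodes ZIP1, a widely expressed importer. It stood at 0.498, 1.13, 1.09, 39.9 and 1.67 in WT replicates 1 to 5 and at 2.19, 3.14 and 0.895 in KO replicates 1 to 3. WT replicate 4 was the one high library, with 284 counts, while the other 7 had 5 to 25 counts. Means were 8.86 ± 17.4 in WT and 2.07 ± 1.13 in KO. In edgeR the change was −2.08 on the log2 scale (SE 1.70, interval −5.88 to 1.72, adjusted p = 0.522), and it was 0.92 without WT replicate 4. A processed pseudogene, Slc39a1-ps, had at most 3 counts in any library.

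Slc39a14 (ENSMUSG00000022094, chromosome 14, 70303469 to 70351425, minus strand) encodes ZIP14, which carries zinc, iron and manganese. Its counts were 17, 245, 4, 1 and 0 in WT replicates 1 to 5 and 12, 66 and 0 in KO replicates 1 to 3. It was thus mainly a transcript of 1 WT and 1 KO library, at 21.2 normalised CPM in WT replicate 2 and 9.87 in KO replicate 2. From 4.63 ± 9.31 in WT to 3.64 ± 5.42 in KO, the log2 change was −0.35 (interval −4.98 to 4.28, adjusted p = 0.937 in edgeR), and 2.88 without WT replicate 2.

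Slc39a7 (ENSMUSG00000024327, chromosome 17, 34028269 to 34031682, minus strand) encodes ZIP7, which releases zinc from the endoplasmic reticulum and Golgi. It was the most evenly detected ZIP gene, at 11.2, 7.37, 8.49, 0 and 50.6 in WT replicates 1 to 5 and 16.5, 24.2 and 5.01 in KO replicates 1 to 3. WT replicate 4, the deepest library, had 0 counts, and WT replicate 5 had the highest level (by CPM of library totals KO replicate 2 did, at 35.5 against 34.4). The means were 15.5 ± 20.1 and 15.3 ± 9.67, and the log2 change was −0.03 (SE 1.58, interval −3.55 to 3.50, adjusted p = 0.993 in edgeR). Without WT replicate 5 it was 1.26. The interval covers large differences in both directions. The gene span of Gm20427, on the same strand, shares 3312 bases with that of Slc39a7. Gm20427 had 24, 0, 0, 24 and 22 counts in WT replicates 1 to 5 and 0, 9 and 0 in KO replicates 1 to 3. The part of read assignment between the 2 genes in the 0 of WT replicate 4 was not tested.

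Among the ZnT genes, Slc30a1 (ENSMUSG00000037434, chromosome 1, 191906767 to 191913247, plus strand) encodes ZnT1, the exporter of the plasma membrane. It had 0, 983, 34, 1 and 4 counts in WT replicates 1 to 5 and 167, 27 and 32 in KO replicates 1 to 3. WT replicate 2 was the one very high library, at 85.2 normalised CPM, and every KO library lay above the other 4 WT libraries, which had at most 2.86. The means were 17.8 ± 37.7 in WT and 8.12 ± 5.68 in KO. The log2 change was −1.13 (SE 2.18, interval −6.00 to 3.75, adjusted p = 0.786 in edgeR) and turned to 3.16 without WT replicate 2 (adjusted p = 0.376) and to 5.13 without both FY libraries; over the alternatives that gave one, which leaves out DESeq2, its adjusted p ran from 0.344 to 0.920. An antisense gene, 1700034H15Rik, overlaps Slc30a1 by 761 bases and had 8 to 36 counts in WT and 31 to 39 in KO. In normalised CPM it stood at 1.12 to 2.99 in WT and 3.15 to 6.98 in KO, so its groups did not overlap. Of all genes tested, 13.2% lay higher in KO without overlap on that scale.

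Because Slc30a1 and Mt1 are both known targets of MTF-1, the bases upstream of their starts are shown. The 250 bases before each RefSeq start (GRCm38.p6) were searched on both strands for TGCACNC and TGCGCNC, which together make up the core of the metal response element. Capitals mark each match, here and below. Slc30a1 is chr1:191906531-191906780 and Mt1 is chr8:94178839-94179088, both on the plus strand.
Slc30a1: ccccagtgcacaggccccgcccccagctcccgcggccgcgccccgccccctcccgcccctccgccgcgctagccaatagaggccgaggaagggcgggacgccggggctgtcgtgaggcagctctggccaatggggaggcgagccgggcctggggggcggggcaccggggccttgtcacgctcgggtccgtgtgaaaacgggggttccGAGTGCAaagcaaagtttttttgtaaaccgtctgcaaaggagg
Mt1: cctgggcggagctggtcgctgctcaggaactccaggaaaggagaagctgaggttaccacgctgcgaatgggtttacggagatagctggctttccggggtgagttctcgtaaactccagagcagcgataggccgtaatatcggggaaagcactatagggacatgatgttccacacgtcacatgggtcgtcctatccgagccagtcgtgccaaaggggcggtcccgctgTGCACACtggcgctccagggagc
Each holds 1 match. In Slc30a1 it is TGCACNC on the minus strand, starting 43 bases before the RefSeq start. In Mt1 it is TGCACNC on the plus strand, 23 bases before the RefSeq start. The same window of the metallothionein gene Mt2 held 3 matches. Bases outside these windows were not searched, so further matches near each gene may be missed. Of 32851 promoters, 21.4% held at least 1 match to either pattern in the same length, so a match is common. Promoters were given for 8 of the 10 transporter genes, and 2 of these, Slc30a1 and Slc30a5, held a match.

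The levels of Slc30a1 and Mt1 did not peak in the same library. Mt1, a metallothionein, had 338 counts in WT replicate 1, where Slc30a1 had 0, and 102 in KO replicate 2. It had 0 counts in the other 4 WT libraries, including WT replicate 2, and 1 and 0 in KO replicates 1 and 3. Mt2, Mt3 and Mt4 had 0 counts in all 8 libraries. Mtf1 itself stood at 0.498, 31.0, 0, 0 and 65.6 normalised CPM in WT replicates 1 to 5 and at 8.22, 8.07 and 5.73 in KO replicates 1 to 3.

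Slc30a5 (ENSMUSG00000021629, chromosome 13, 100802648 to 100833427, minus strand) and Slc30a6 (ENSMUSG00000024069, chromosome 17, 74395608 to 74424221, plus strand) encode ZnT5 and ZnT6. These 2 proteins form a heteromer that loads zinc into the early secretory pathway, where enzymes such as alkaline phosphatases acquire it. Their upstream bases, chr13:100833428-100833677 on the minus strand and chr17:74395358-74395607 on the plus strand, are set side by side because the levels of the 2 genes differed so much between libraries.
Slc30a5: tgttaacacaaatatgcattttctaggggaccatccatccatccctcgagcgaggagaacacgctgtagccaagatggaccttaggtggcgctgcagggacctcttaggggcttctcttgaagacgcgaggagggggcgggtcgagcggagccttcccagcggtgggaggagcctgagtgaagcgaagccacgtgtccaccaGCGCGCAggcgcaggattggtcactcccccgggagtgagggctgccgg
Slc30a6: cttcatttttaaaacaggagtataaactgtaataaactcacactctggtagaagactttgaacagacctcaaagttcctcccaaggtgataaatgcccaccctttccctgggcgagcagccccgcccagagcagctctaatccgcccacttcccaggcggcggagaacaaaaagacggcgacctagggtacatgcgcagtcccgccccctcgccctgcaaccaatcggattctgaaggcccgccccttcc
Slc30a5 holds 1 match, to TGCGCNC on the strand opposite to the bases shown, 48 bases before the start. The Slc30a6 window holds 0 full matches to either pattern.

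Slc30a5 was among the most abundant of the 10 genes, at 23.1, 326, 76.0, 133 and 3.21 normalised CPM in WT replicates 1 to 5 and 71.5, 55.9 and 16.5 in KO replicates 1 to 3. WT replicate 2 was highest and WT replicate 5 lowest, with all KO libraries inside the WT range. In edgeR the difference was −1.23 on the log2 scale (SE 1.26, interval −4.05 to 1.60, adjusted p = 0.604), from 112 ± 130 in WT and 47.9 ± 28.4 in KO. It was −0.28 without WT replicate 2 and 0.21 without both FY libraries.

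Slc30a6 had the largest fitted difference of the 10 genes. It stood at 41.5, 3.12, 4.29, 174 and 42.4 in WT replicates 1 to 5 and at 6.04, 1.20 and 8.95 in KO replicates 1 to 3. WT replicates 1, 4 and 5 were above every KO library, while WT replicates 2 and 3, the libraries named FY, lay among them. The means were 53.1 ± 70.4 in WT and 5.39 ± 3.92 in KO, with a log2 change of −3.30 (SE 1.60, interval −6.87 to 0.28, adjusted p = 0.358 in edgeR). DESeq2 called it lower in KO (log2 change −4.05, adjusted p = 0.0491), in a fit that called 9.65% of the genes it tested, and 5.57% as lower. The log2 change was −1.56 without WT replicates 4 and 5 together and −3.75 without both FY libraries. It was negative in all 19 alternative settings tried, with adjusted p from 0.0491 to 0.749.

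The ratio of the partners reversed between libraries. Per kilobase, Slc30a5 exceeded Slc30a6 by 63.6-fold in WT replicate 2 and 10.8-fold in WT replicate 3. In WT replicates 1, 4 and 5 it stood at 0.339, 0.465 and 0.0461 of Slc30a6. The ratios in KO replicates 1 to 3 were 7.22, 28.5 and 1.12, so no KO library had less Slc30a5 than Slc30a6 and 3 of 5 WT libraries did. That of KO replicate 2 rests on 8 counts of Slc30a6, under the mark of detection. These ratios are not changed by the scaling of a library, but a transcript length that differs from the deposited one would shift them all alike. Among WT libraries the split followed the name prefix, FY in WT replicates 2 and 3 and CY in WT replicates 1, 4 and 5. All KO libraries carry CY. The part of the prefix in the ratios was not tested.

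**Figure D2:**
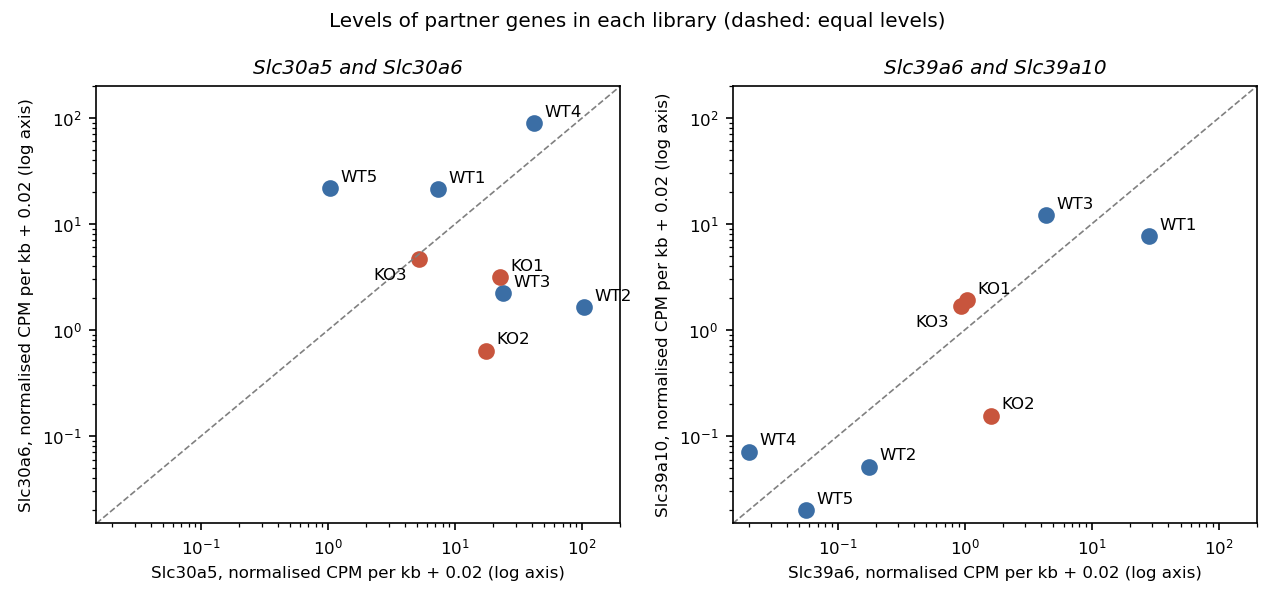
Each point is 1 library (WT blue, KO red), placed by the levels of 2 partner genes in normalised CPM per kilobase + 0.02 on log axes, Slc30a5 (x) against Slc30a6 (y) on the left and Slc39a6 (x) against Slc39a10 (y) on the right; the dashed line marks equal levels. WT replicates 1, 4 and 5 lie above the line on the left, and the Slc39a6 and Slc39a10 points of WT replicates 1 and 3 lie together at the upper right.

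Slc30a7 (ENSMUSG00000054414, chromosome 3, 115938973 to 116007406, minus strand) encodes ZnT7, which also fills the early secretory pathway but as a homomer. Its levels were 15.8, 44.1, 17.5, 88.5 and 0.279 in WT replicates 1 to 5 and 65.6, 6.88 and 30.1 in KO replicates 1 to 3. The groups covered nearly the same range apart from WT replicate 5, which had 2 counts. WT replicate 4 was highest here, but KO replicate 1 was by CPM of library totals, at 88.5 against 35.0. With means of 33.2 ± 34.7 and 34.2 ± 29.6, the log2 change was 0.04 (SE 1.40, interval −3.08 to 3.16, adjusted p = 0.988 in edgeR).

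Slc30a9 (ENSMUSG00000029221, chromosome 5, 67306955 to 67358443, plus strand) encodes ZnT9, a zinc transporter of mitochondria. Its highest level was in a KO library, in normalised CPM and in CPM of library totals alike. It stood at 93.8, 17.4, 61.2, 1.69 and 1.39 in WT replicates 1 to 5 and at 90.2, 114 and 116 in KO replicates 1 to 3. All KO libraries were high and close together, and WT replicate 1 alone among WT libraries reached their range. The means were 35.1 ± 40.9 in WT and 107 ± 14.4 in KO. The log2 change was 1.60 (SE 1.27, interval −1.23 to 4.44, adjusted p = 0.510 in edgeR) and was positive in all 19 alternative settings, with adjusted p from 0.271 to 0.777. It was 0.94 without WT replicates 4 and 5. In CPM of library totals, without TMM factors, the groups did not overlap: the WT libraries reached at most 107 and the KO libraries had 122, 167 and 150. On that scale 18.8% of all genes tested lay higher in KO without overlap.

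**Figure D3:**
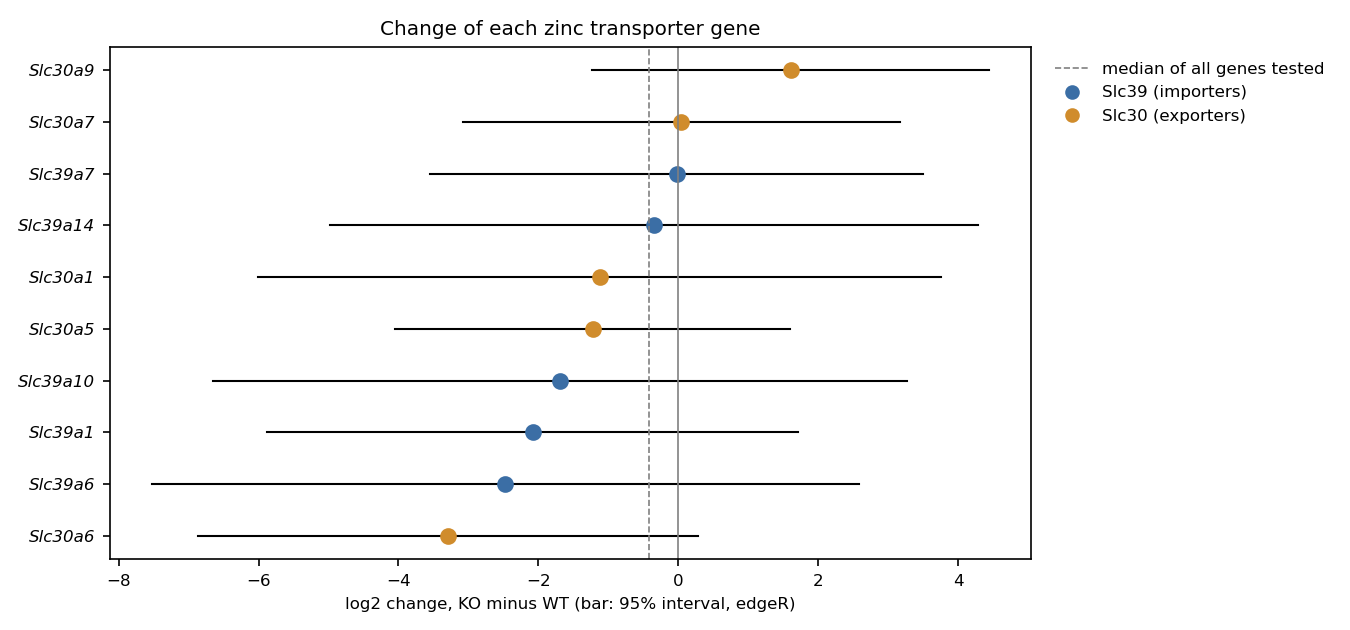
Points are log2 changes of the 10 genes (x, KO minus WT; Slc39 in blue, Slc30 in orange) with 95% intervals from edgeR; the dashed line is the median of all genes tested, −0.42. All 10 intervals include 0.

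As a set, the 10 genes passed the count filter, and by edgeR 0 of them had an adjusted p under 0.05, as did 0% of all genes tested. At an unadjusted p under 0.05 edgeR also gave 0 of 10, against 14.4% of all genes and 8.25% of the 8859 genes within the members' range of mean log2 CPM. DESeq2 gave an adjusted p for 7 of the 10 (not for Slc39a1, Slc39a14 and Slc30a1) and called 1, against 9.65% of all genes it tested. With limma-voom 0 of 10 were called. The groups overlapped for all 10, whereas 17.7% of all genes tested did not overlap in normalised CPM (13.2% higher and 4.49% lower in KO), and 12.9% of the genes in that range. By CPM of library totals Slc30a9 did not overlap, and 20.5% of all genes did not. Log2 changes were negative for 8 genes, namely all 5 ZIP genes and 3 of 5 ZnT genes, with a median of −1.18. Over all genes tested 43.2% were positive and the median was −0.42, and over the genes in the same range of mean expression 37.3% were positive and the median was −0.63. Medians of the libraries gave another picture than the fitted changes, which follow group means. In normalised CPM the KO median was above the WT median for 8 of 10 genes, the exceptions being Slc30a5 and Slc30a6, and for 55% of all genes tested. For 6 of these 8 (all 5 ZIP genes and Slc30a1) the fitted log2 change was negative, a mismatch seen in 14.2% of all genes tested. Slc30a1, for example, had a median of 0.558 normalised CPM in WT and 5.73 in KO, and Slc39a10 one of 0.281 and 9.13. The median of all genes moved with the scaling, to −0.72 with DESeq2's size factors, 0.21 with library totals and 0.32 with upper-quartile factors. Relative to the median of all genes, Slc30a9 stood 1.08 to 2.76 higher and Slc30a6 stood at −3.78 to −1.14 over all settings.

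The spread between libraries of 1 group was wide for each member. The SD of log2 CPM within groups ran from 1.93 for Slc39a1 to 3.46 for Slc39a10, with a median of 2.50 over the 10 genes. The median was 1.66 over all genes tested and 2.24 over the genes in that range.

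Per kilobase, the order of the genes differed between the groups. In WT the highest means were those of Slc30a5 (35.3 ± 40.8 normalised CPM per kilobase) and Slc30a6 (27.4 ± 36.3), followed by Slc39a7 (6.70 ± 8.64), Slc39a6 (6.51 ± 12.2) and Slc30a9 (6.14 ± 7.16). The other 5 genes had WT means of 2.21 to 3.98, and since each SD exceeded its mean, neighbours in this order did not differ beyond their spread. In KO the order began with Slc30a9 (18.7 ± 2.52), Slc30a5 (15.1 ± 8.92) and Slc39a7 (6.58 ± 4.17). The other KO means were 3.79 for Slc30a7, 2.78 for Slc30a6 and 0.877 to 1.74 for the rest. Slc30a9 and Slc30a5 did not differ beyond their spread in KO, whereas each KO library had more Slc30a9 than Slc39a7, by level per kilobase.

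The leading transcript changed from library to library. Of the summed level of the 10 genes per kilobase, Slc39a6 held 31.8% in WT replicate 1, Slc30a5 72.0% and 39.8% in WT replicates 2 and 3, and Slc30a6 56.6% and 47.7% in WT replicates 4 and 5. In WT replicate 5, Slc30a6 and Slc39a7 together held 95.3%. In KO, Slc30a5 led in replicate 1 with 35.7%, and Slc30a9 led in replicates 2 and 3 with 34.6% and 51.2%. The ZnT genes held 50.8 to 90.2% of the sum in WT and 68.6 to 87.1% in KO.

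**Figure D4:**
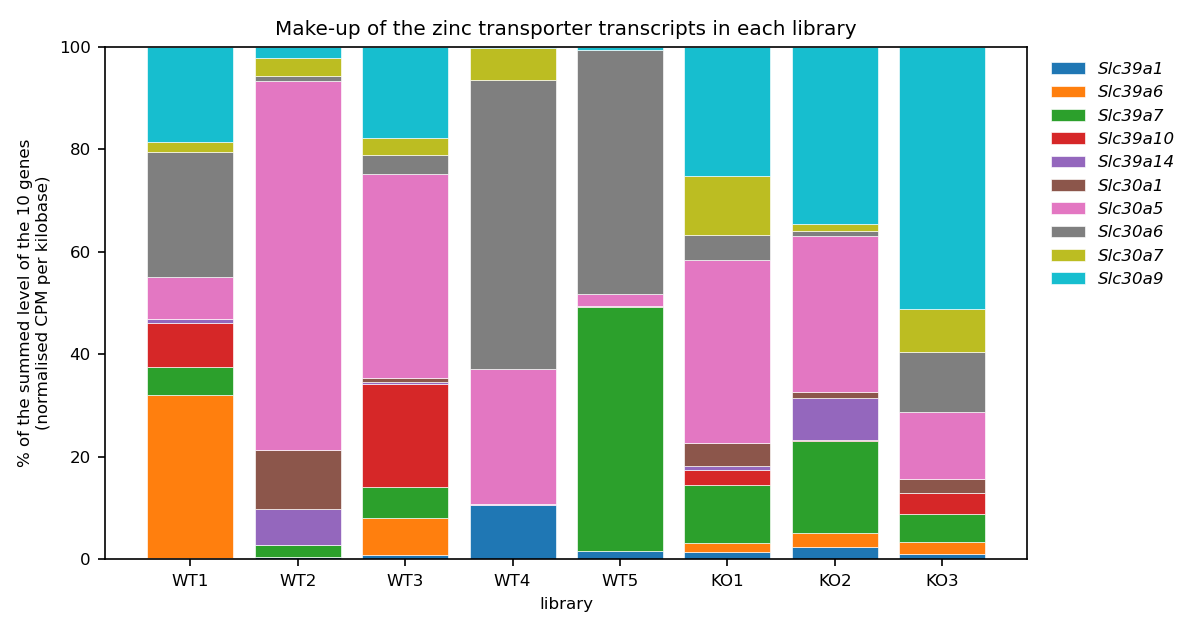
Stacked bars give the share of each gene (colour) in the summed normalised CPM per kilobase of the 10 genes (y, %) in each library (x). Different genes lead in the WT libraries, and Slc30a9 holds 25.1 to 51.2% in the KO libraries.

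Some genes peaked in WT replicates 4 and 5, where markers of other cells were also high. Slc39a6, Slc39a10, Slc39a14, Slc30a1, Slc30a5 and Slc30a9 peaked in other libraries. By CPM of library totals, Slc30a7 peaked in KO replicate 1 and Slc39a7 in KO replicate 2 instead. In normalised CPM, Slc39a1, Slc30a6 and Slc30a7 were highest in WT replicate 4. There 4 of 6 B cell markers had 10 counts and their sum was 1231 CPM of library totals, against 226 to 590 in the other WT and 104 to 261 in the KO libraries. Of 7 markers of NK and CD8 T cells, 2 (Nkg7 and Cd8b1) had 10 counts there and summed, with the rest, to 1027 CPM against 6.57 to 132 elsewhere; Gzmb, Prf1, Klrb1c, Ncr1 and Cd8a were at 0. Slc39a7 was highest in WT replicate 5, where 4 of 6 erythroid markers had 10 counts and summed to 6188 CPM, against 0 to 24.0 elsewhere, with Alas2 at 0. The sum of 6 myeloid markers was also highest in WT replicate 4 in normalised CPM, at 293 against at most 123 elsewhere, with 428 counts of Itgam and 1348 of S100a9 but Lyz2, Csf1r and Adgre1 at 0. By CPM of library totals WT replicate 3 was higher, at 131 against 116. Without WT replicate 4, Slc30a6 had a log2 change of −2.08 and Slc30a7 one of 0.82; the part of these cells in the levels was not tested. In bulk libraries, fewer cells of a type and less RNA per cell cannot be told apart.

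Of the 14 other Slc39 and Slc30 genes, 6 passed the count filter and 0 had an adjusted p under 0.05 in edgeR. Slc39a2, a ZIP1 relative, had 1, 1, 19, 0 and 4 counts in WT replicates 1 to 5 and 6, 148 and 43 in KO replicates 1 to 3. KO replicates 2 and 3 were above every WT library, and its log2 change of 4.39 (interval 0.90 to 7.88, unadjusted p = 0.0188, adjusted p = 0.325 in edgeR) did not pass the test. It was 1 of 16 tested family genes (6.25%) at an unadjusted p under 0.05, against 14.4% of all genes tested. Slc39a8 (ZIP8, which also carries manganese and cadmium) was below the filter, with 2, 3, 6, 1 and 0 counts in WT and 96, 24 and 4 in KO. Its KO libraries lay above the WT libraries in normalised CPM, the lowest at 0.716 against at most 0.504, a gap of 1 or a few reads.

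Of the remaining genes of the families with 10 counts in some library, Slc39a9 (ZIP9) was the most widely detected, with 530 and 158 counts in WT replicates 2 and 3, 9, 2 and 1 in the other WT libraries, and 312, 33 and 43 in KO. It had its highest levels in WT replicate 2 and KO replicate 1, at 46.0 and 27.3 normalised CPM, with a log2 change of 0.14. Slc39a13 had 195, 0, 0, 47 and 0 counts in WT and 0, 88 and 3 in KO. Slc39a4 reached 159 counts in WT replicate 2, Slc39a3 274 in the same library, Slc39a11 116 and Slc30a4 125 in KO replicate 1, and Slc30a2 32 in KO replicate 2. The other 5 genes stayed under 10 counts everywhere, and 2 of them, Slc39a5 and Slc39a12, had 0 counts in all 8 libraries.

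Genes that work beside the transporters did not pass the test either. Of 8 genes of zinc buffering and sensing, 3 were tested and 0 called. Trpm7, a channel that passes zinc and magnesium, was the steadiest, at 189 ± 71.6 normalised CPM in WT and 222 ± 37.4 in KO (log2 change 0.23, interval −0.99 to 1.45). By CPM of library totals its groups did not overlap, at 67.4 to 213 in WT and 232 to 349 in KO. On that scale 18.8% of all genes tested lay higher in KO without overlap. The zinc chaperone gene Zng1 had 15.2 ± 14.9 and 18.0 ± 21.8. Of the 3 subunit genes of casein kinase 2, which phosphorylates ZIP7 to open it, 0 were called. Csnk2a1 had 90.0 ± 51.6 in WT and 47.2 ± 20.3 in KO, Csnk2b 62.9 ± 72.5 and 42.3 ± 17.2, and Csnk2a2 28.9 ± 19.1 and 33.6 ± 39.4.

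Of 4 zinc enzymes of the secretory pathway and cell surface, 3 were tested and 0 called. Nt5e encodes CD73, which makes adenosine on Treg cells, and had 214, 216, 105, 45.4 and 171 normalised CPM in WT replicates 1 to 5 and 122, 47.8 and 50.8 in KO replicates 1 to 3. KO replicates 2 and 3 and WT replicate 4 were the low libraries, and from 150 ± 73.8 to 73.4 ± 41.8 the log2 change was −1.03 (SE 0.76, interval −2.73 to 0.66, adjusted p = 0.483 in edgeR). Enpp1 had 36.2 ± 56.2 and 15.3 ± 15.7, with 133 in WT replicate 3, and Enpp3 had 2.54 ± 3.23 and 1.73 ± 1.52.

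The direction of several differences changed without the library with the highest level, as the plot of log2 changes by setting shows. Leaving out that library turned the sign for Slc39a1, Slc39a6, Slc39a7, Slc39a14 and Slc30a1, as given above for each. Over all alternatives the sign was reversed in 4 of 18 for Slc39a1, 1 of 19 for Slc39a6 and 9 of 19 for Slc39a7. Reversals were 7 of 18 for Slc39a14 and 4 of 19 for Slc30a1. Except for Slc39a6, these included settings that kept the highest library. The sign held in every setting for Slc30a6, Slc39a10 and Slc30a9, and was reversed in 1 of 19 for Slc30a5 and 7 of 19 for Slc30a7.

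**Figure D5:**
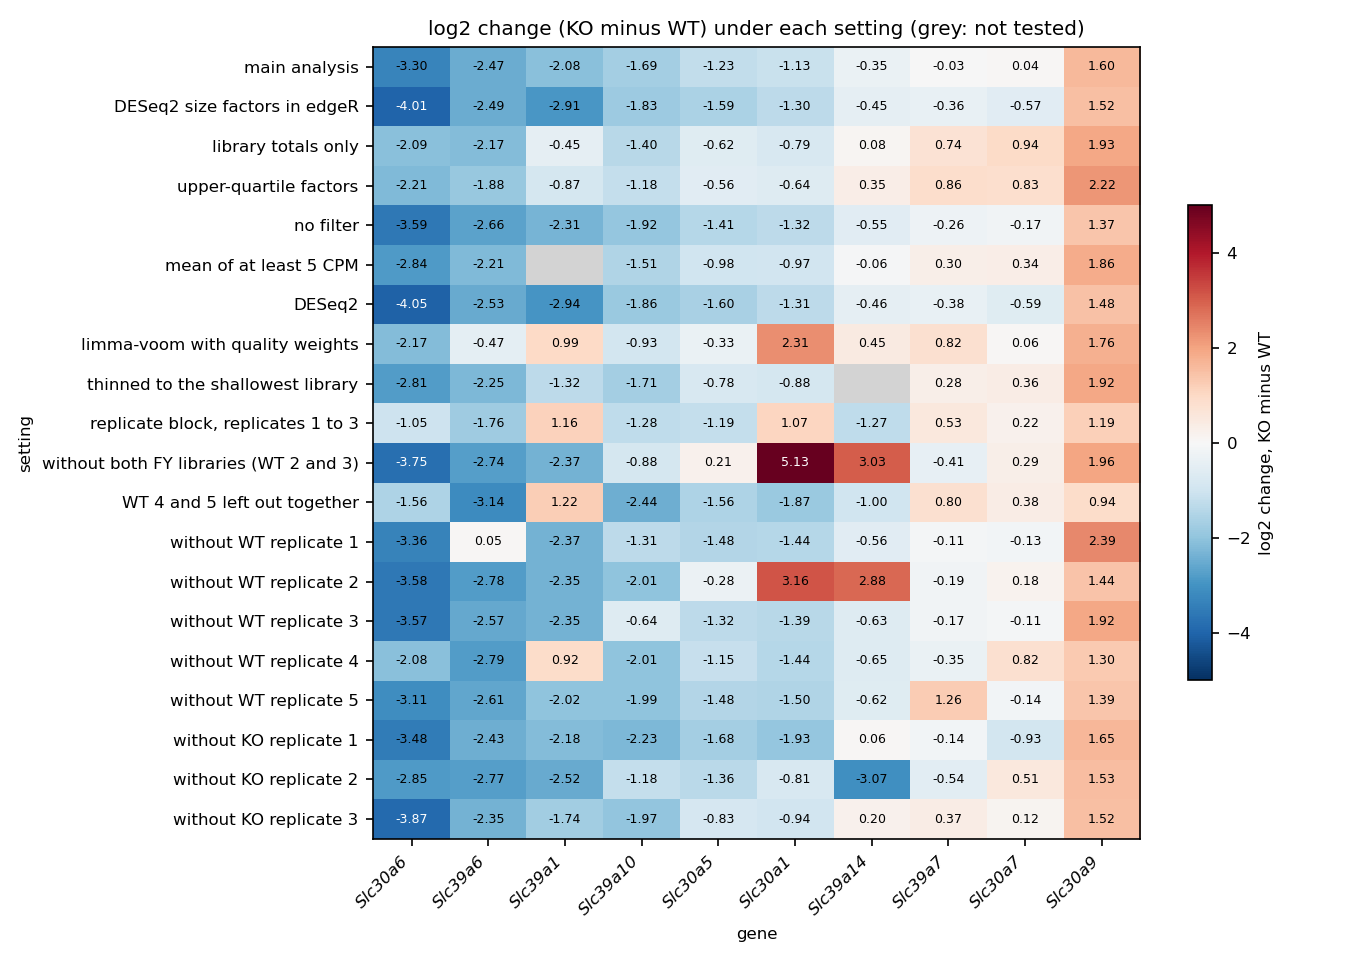
Each cell gives the log2 change (KO minus WT) of 1 gene (column) under 1 setting (row), blue negative and red positive, with the value printed; grey marks a gene that was not tested in that setting. Slc30a6 and Slc39a10 are blue and Slc30a9 is red in every row, while Slc30a1 runs from −1.93 to 5.13.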

How the data were processed

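The authors deposited 1 table of expected counts per gene (estimated counts, which need not be whole), made before deposit with tools that the submitters' processing notes list as fastp, HISAT2, StringTie, RSEM and DESeq2 on mm10, with no versions or roles. The gene annotation was not given in the sources. Of the 80 values of the 10 genes, 44 were not whole. Per the labels' protocols, SMART-Seq v4 was used on total RNA; it does not mark strand. Gene lengths are the deposited ones. Group mean columns were left out: the deposited KO mean equalled that of the 3 KO libraries in 100% of genes, but the WT mean that of the 5 WT libraries in only 36.8% (tolerance 0.001), so how the WT mean was made is not known. There were 0 columns of other samples. Groups and replicate numbers were read from the titles.

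Rounded counts were tested, KO minus WT, with edgeR 4.0.16 in R 4.3.3 by its two-sided quasi-likelihood test on all 8 libraries, without covariates. Genes were kept by filterByExpr at a minimum count of 10, scaled by TMM and called at a Benjamini-Hochberg adjusted p under 0.05. The SE is the size of the log2 change divided by the root of F. Within-group SDs of log2 CPM used a prior count of 2. Alternatives are in the closing section; DESeq2 1.42.0 and limma 3.58.1 were used there, and the procedure was tested on simulated data. Coordinates are from GENCODE M21 (GRCm38), promoters from RefSeq (GRCm38.p6), and figures were drawn with matplotlib 3.10.9.

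All members and lists were chosen with earlier results of these data known. The genes named are the 10 members, family genes that were tested or had 10 counts in a library, and from each list of zinc genes those called and the 3 with the highest mean; Mt1 to Mt4 and Slc39a5 and Slc39a12 were added after their values were seen. Cbwd1 was matched as Zng1. Some single markers are not reported here. No pair of libraries within a group agreed within sampling noise (chi-square per degree of freedom at least 58.3).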

Additional observations from a re-analysis of the deposited data

Results flagged for a closer look

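In 6 of the 10 genes, 1 WT library lay far from the other 4: its gap to the nearest of them, as a share of the whole WT range in normalised CPM, was above 0.71, the 95% critical value of Dixon's test for 5 samples. For normally distributed values chance gives about 1 such group in 20, but these levels are skewed, and 29% of all genes tested had such a WT library. The share was 0.97 for Slc39a1 in WT replicate 4, 0.845 for Slc39a6 in WT replicate 1, 0.779 for Slc39a7 in WT replicate 5, 0.934 for Slc39a14 and 0.966 for Slc30a1, both in WT replicate 2, and 0.771 for Slc30a6 in WT replicate 4. In each of these 6 the outlying library was the highest, and 4 of the 5 WT libraries appear among them. By CPM of library totals the share was above 0.71 for 5 of the 10 genes and 21.7% of all genes tested: Slc30a6 (0.332) and Slc39a7 (0.63) fell below it and Slc30a5 rose above it, with 0.775.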

How the results depend on the processing

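The 19 alternatives gave 188 values for the log2 changes of the 10 genes, of which 33 changed sign and 1 passed the threshold, Slc30a6 in DESeq2 (log2 change −4.05, adjusted p = 0.0491). Members called numbered 0 in the other 18 alternatives. All genes called numbered 0 in edgeR, 1431 in DESeq2 (9.65% of those it tested) and 22 with limma-voom and quality weights. They numbered 1 with library totals, upper-quartile factors, a minimum mean of 5 CPM, no filter, or counts thinned to the shallowest library, and 0 with DESeq2's size factors. The median log2 change of the members (−1.18) became 0.25 with limma-voom, the one setting that reversed it. The cause of these changes was not tested.

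Values that changed sign were as follows. With DESeq2's size factors Slc30a7 had −0.57. With library totals Slc39a14 had 0.085 and Slc39a7 0.74, and with upper-quartile factors 0.35 and 0.86. Without a filter Slc30a7 had −0.17, and in DESeq2 −0.59. Slc39a7 had 0.30 with a minimum mean of 5 CPM and 0.28 after thinning. With limma-voom Slc39a14 had 0.45, Slc39a7 0.82, Slc30a1 2.31 and Slc39a1 0.99. Without both libraries named FY (WT replicates 2 and 3) Slc30a5 had 0.21, Slc39a14 3.03 and Slc30a1 5.13. Without WT replicates 4 and 5 Slc39a7 had 0.80 and Slc39a1 1.22.

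Leaving out each library in turn, the number called was 0 for members and 0 for all genes each time, and the median of the members ran from −1.80 to −0.24. The ranges were −1.93 to 3.16 for Slc30a1, −1.68 to −0.28 for Slc30a5, −3.87 to −2.08 for Slc30a6, −0.93 to 0.82 for Slc30a7 and 1.30 to 2.39 for Slc30a9. They were −2.52 to 0.92 for Slc39a1, −2.23 to −0.64 for Slc39a10, −3.07 to 2.88 for Slc39a14, −2.79 to 0.047 for Slc39a6 (0.047 without WT replicate 1) and −0.54 to 1.26 for Slc39a7.

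Same-numbered WT and KO libraries deviated together weakly at most. Over 14755 genes the correlations were 0.059, 0.0095 and 0.035, against −0.044 to 0.011 for unlike numbers. Of 6 libraries, 5 correlated best with their own number. These values do not settle whether the numbers mark pairs, and the main test did not use the numbers as pairs. With a replicate block over replicates 1 to 3, 0 members and 0 genes were called, the median of the members was −0.41, and Slc39a7 had 0.53, Slc30a1 1.07 and Slc39a1 1.16.

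Of the members, 1 each was lost to filters, Slc39a1 at a mean of 5 CPM and Slc39a14 after thinning. Of 80 values 19 were under 10 counts, 15 of them in WT, although WT libraries were deeper (10544594 to 17976947 counts against 4314262 to 8477688 in KO); the part of depth in this was not tested.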
